A study of Mus musculus with 6 samples.

Results

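The ErbB receptors and the neuregulins make up 8 of the 23073 genes with a value in RNA-Seq libraries of mouse diaphragm muscle, and were chosen by name. They are the 4 receptor genes Egfr, Erbb2, Erbb3 and Erbb4 and the 4 ligand genes Nrg1, Nrg2, Nrg3 and Nrg4, and all 8 were found through their Ensembl identifiers. ErbB receptors are tyrosine kinases of the cell surface that join in pairs when a ligand of the EGF family binds. ErbB3 binds neuregulins but has little kinase activity of its own, whereas ErbB2 has an active kinase and no known ligand of its own, so that they signal together. In peripheral nerve, neuregulin-1 made by neurons acts through ErbB2 and ErbB3 on Schwann cells, the glia that wrap axons, and Schwann cell precursors need this signal to survive and to populate the nerve.

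RNA was taken from diaphragms of E14.75 embryos, with 2 biological replicates in each of 3 groups. The first group, erbB3 WT, consisted of total RNA of whole muscle and has the replicate numbers 5 and 6. The second, erbB3 KO, called mutant here, was total RNA of whole muscle described as lacking Schwann cells, with the numbers 1 and 2. The third, titled TOM and called Wnt1-Ribotag or Ribotag here, carried Wnt1-Cre and Ribotag alleles and was WT for erbB3, with the numbers 1 and 2. In Ribotag mice, Cre switches on a hemagglutinin tag on a ribosomal protein, and RNA bound to tagged ribosomes is then pulled down with an antibody. Wnt1-Cre acts in the neural crest, whose descendants include Schwann cells and also peripheral neurons and other cells. For each Ribotag library, the paper describes homogenizing the diaphragms of an entire litter, with only part of the embryos later genotyped as Cre-positive. Far less RNA went into these libraries than into the whole muscle libraries. The labels do not tie the erbB3 mutation to a cell type. The mutant vs. WT comparison asks which transcripts differ between muscle with the erbB3 mutation, described as lacking Schwann cells, and WT muscle. The paper reports that denervation was maximal at this age. The mutation, the missing Schwann cells and the loss of axons cannot be told apart in this comparison. The Ribotag libraries were made to sample the transcripts of the Schwann cells themselves. Ribotag and mutant libraries differ in erbB3 genotype, in RNA preparation and in the alleles Wnt1-Cre and Ribotag, which cannot be told apart. Between Ribotag and WT libraries, preparation differs together with the alleles Wnt1-Cre and Ribotag, and these cannot be told apart either.

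Levels are given as RPKM, which scales reads to gene length and depth and allows levels of different genes to be compared. Where no read was found, the files hold a small value instead of 0, and these values give the depth. It was 100178863 mapped reads in WT 5, 229922644 in WT 6, 130755581 in mutant 1, 230216660 in mutant 2, 122770245 in Ribotag 1 and 171266729 in Ribotag 2. Each of the 8 genes had reads in every library.

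The libraries differed in more than the labels state, as lists of cell type markers showed. In the Schwann lineage list of 13 genes, Sox10, a transcription factor of Schwann cells, was at 2.89 and 2.16 RPKM in WT 5 and 6, 0.0086 and 0.018 in mutant 1 and 2, and 15.5 and 32.2 in Ribotag 1 and 2. In mutant vs. WT muscle, Sox10, Fabp7 and Pou3f1 of this list passed the test described below, each lower in the libraries labelled mutant. The summed RPKM of the list was 106.4 and 97.4 in WT, 90.8 and 82.3 in mutant and 269.4 and 537.3 in Ribotag libraries. Its most abundant gene, Pmp22, did not follow Sox10, with a mean over all libraries of 53.4 RPKM. Neuronal markers varied within groups as well. The 13 neuronal genes found summed to 16.5 RPKM in WT 5 and 80.6 in WT 6, to 9.99 and 14.5 in mutant 1 and 2, and to 133.5 and 595.9 in Ribotag 1 and 2. Stmn2 was the most abundant of them, while the motor neuron genes Chat and Mnx1 were at the floor in at least 1 library. Hepatocyte markers, 9 genes led by Afp, summed to 514.2, 158.5, 20.6, 12.5, 297.2 and 200.9 RPKM in the order WT 5, WT 6, mutant 1, mutant 2, Ribotag 1 and Ribotag 2. Skeletal muscle markers, 12 genes led by Acta1, summed to 1980, 1637, 3189, 1680, 2121 and 1875 RPKM in the same order. The 11 epithelial and mesothelial markers, led by Upk3b, summed to 155.4, 140.7, 156.03, 147.6, 92.6 and 74.5 RPKM. The highest and lowest sums of the remaining lists were 2384 RPKM in mutant 1 and 1701 in Ribotag 1 for connective tissue, 48.2 in mutant 1 and 32.5 in Ribotag 2 for endothelium, 109.3 in WT 5 and 51.5 in Ribotag 2 for macrophages, and 14930 in WT 5 and 5804 in Ribotag 2 for erythroid cells. In what follows, the part of these differences in the results for ErbB receptors and neuregulins was not tested.

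**Figure D1:**
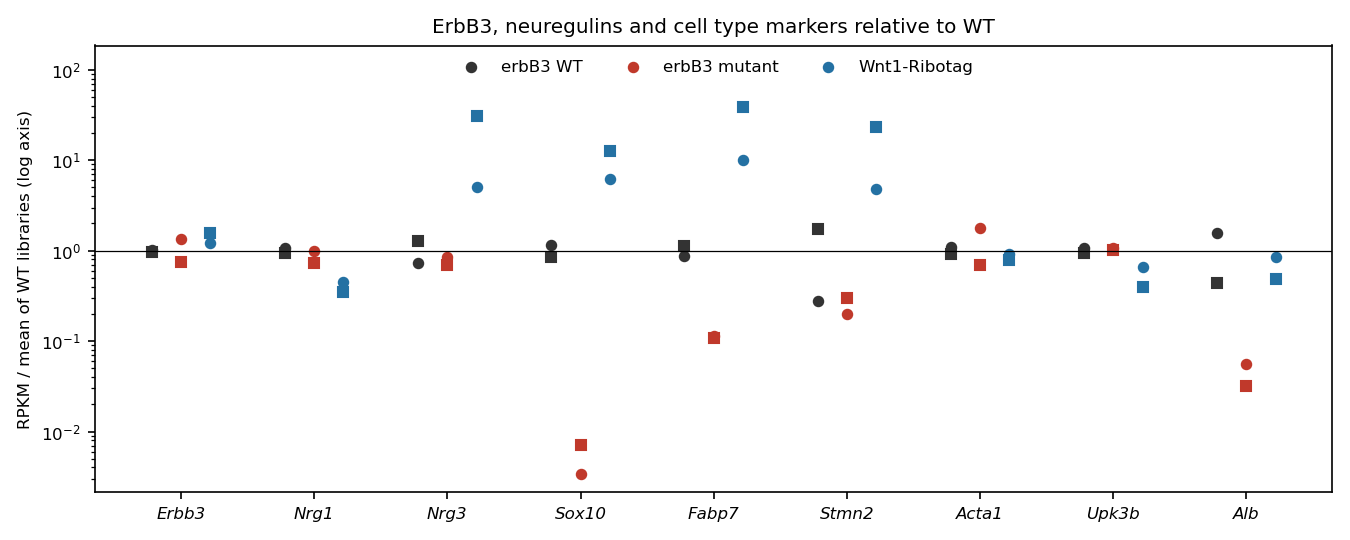
RPKM of 3 ErbB and neuregulin genes and 6 cell type markers in each library, divided by the mean of the WT libraries, on a log axis; circles are the lower and squares the higher replicate number of each group. Sox10 and Fabp7 sit far below WT in mutant and above WT in Ribotag libraries, whereas Erbb3 lies between 0.740 and 1.57 times the WT mean in all of them.

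Erbb3, the gene targeted in the mutant (ENSMUSG00000018166, chromosome 10 from 128567523 to 128589652 on GRCm38), was the most abundant of the 8 genes in every library. It was at 16.5 RPKM in WT 5, 15.8 in WT 6, 21.5 in mutant 1, 11.9 in mutant 2, 19.5 in Ribotag 1 and 25.3 in Ribotag 2. The libraries labelled mutant thus held the highest and the lowest Erbb3 level among the whole muscle libraries, on either side of the WT pair. A gene-level RPKM does not show which exons the reads came from, nor whether they encode a working receptor. The Erbb3 transcript therefore does not separate the genotypes, and mutant means in all that follows the libraries labelled erbB3 KO. In muscle as a whole, fewer cells of a type and less RNA per cell cannot be told apart.

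Erbb2, the kinase partner of ErbB3 (ENSMUSG00000062312, chromosome 11 from 98412470 to 98437716), was at 12.3 RPKM in WT 5, 13.1 in WT 6, 11.4 in mutant 1, 6.37 in mutant 2, 9.45 in Ribotag 1 and 8.61 in Ribotag 2. Both WT libraries were above the other 4, and mutant 2 was lowest. Egfr, the receptor for EGF and related ligands (ENSMUSG00000020122, chromosome 11 from 16752203 to 16918158), was at 8.38 and 10.1 RPKM in WT 5 and 6, 7.81 and 7.12 in mutant 1 and 2, and 9.79 and 5.17 in Ribotag 1 and 2. The Ribotag libraries lay on both sides of the mutant pair, and only the mutant and WT ranges were apart. Erbb4, a neuregulin receptor with a kinase of its own (ENSMUSG00000062209, chromosome 1 from 68032186 to 69108059), was the least abundant receptor in all 6 libraries. Its level was 0.618 and 1.12 RPKM in WT 5 and 6, 0.561 and 0.632 in mutant 1 and 2, and 1.04 and 0.251 in Ribotag 1 and 2, so that the ranges of all 3 groups overlapped. The order of receptor levels was Erbb3, Erbb2, Egfr and Erbb4 from high to low in 4 libraries. In mutant 2 and Ribotag 1, Egfr stood above Erbb2. Erbb2 and Egfr are thus neighbours in this order that do not differ beyond the spread between replicates of the mutant and Ribotag groups, while Erbb3 exceeded both, and Erbb4 was below both, in each library. Among all genes of a library, Erbb3 ranked between percentiles 78.7 and 88.5 of RPKM, and Erbb4 between 34.1 and 44.3.

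Neuregulins were less abundant than Erbb3, Erbb2 and Egfr in every library. Nrg1, the ligand on which Schwann cells depend (ENSMUSG00000062991, chromosome 8 from 31814551 to 32884029), was at 2.47 RPKM in WT 5, 2.16 in WT 6, 2.31 in mutant 1, 1.67 in mutant 2, 1.05 in Ribotag 1 and 0.809 in Ribotag 2. All 4 whole muscle libraries were above both Ribotag libraries. Nrg4, a ligand of ErbB4 (ENSMUSG00000032311, chromosome 9 from 55220222 to 55326844), varied least of the 8 genes by the ratio of its highest to its lowest level, 1.60. It was at 1.20 and 1.31 RPKM in WT 5 and 6, 1.23 and 1.30 in mutant 1 and 2, and 1.21 and 0.817 in Ribotag 1 and 2. Its exons share 368 bases with Fbxo22 on the other strand, which is 6.06% of its annotated exon length, and reads of such a stretch cannot be assigned without strand.

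Nrg2 (ENSMUSG00000060275, chromosome 18 from 36017652 to 36197380) and Nrg3 (ENSMUSG00000041014, chromosome 14 from 38368952 to 39473088) are neuregulins best known from the nervous system, and Nrg3 binds ErbB4. Nrg2 was at 0.978 and 0.746 RPKM in WT 5 and 6, 0.837 and 0.648 in mutant 1 and 2, and 0.179 and 0.277 in Ribotag 1 and 2. As for Nrg1, both Ribotag libraries were below all whole muscle libraries. Nrg3 was the lowest of the 8 genes in whole muscle, at 0.014 RPKM in WT 5, 0.025 in WT 6, 0.017 in mutant 1 and 0.014 in mutant 2, but was at 0.101 in Ribotag 1 and 0.613 in Ribotag 2. Both Ribotag libraries were above all others, and they differed widely from each other. With the exon length of the annotation used here, these levels correspond to about 9.79, 39.5, 14.9 and 21.6 reads in the whole muscle libraries. In Ribotag 1 and 2 they correspond to about 84.5 and 715.9 reads. These figures depend on the inferred depth and on a gene length which the sources used here do not give. The order of neuregulin levels was Nrg1, Nrg4, Nrg2 and Nrg3 in the 4 whole muscle libraries. In both Ribotag libraries Nrg4 stood above Nrg1, and in Ribotag 2 Nrg3 stood above Nrg2. Nrg1 and Nrg4 differed beyond the spread between replicates in WT muscle, by their separate ranges, and also in mutant muscle, but their ranges overlapped in Ribotag libraries.

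**Figure D2:**
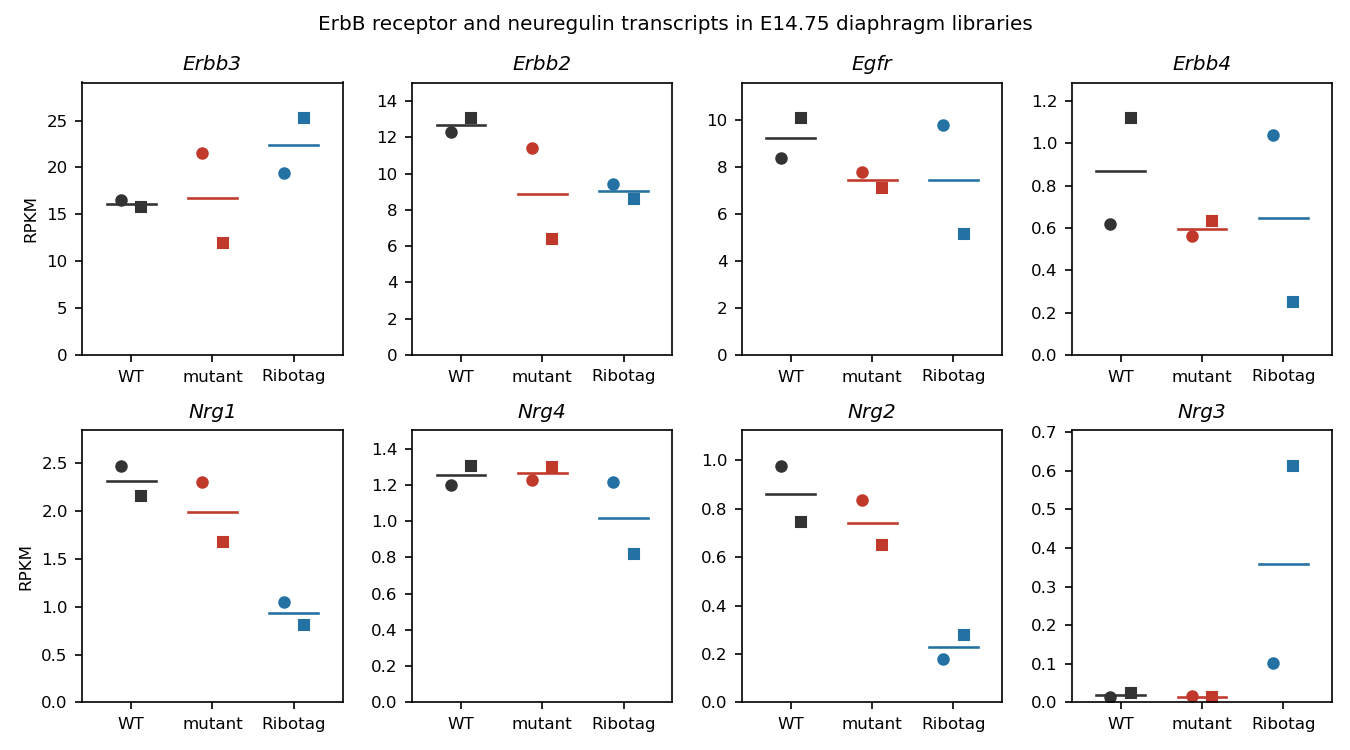
RPKM of each ErbB receptor and neuregulin gene by group; circles are WT 5, mutant 1 and Ribotag 1, squares are WT 6, mutant 2 and Ribotag 2, and bars are group means of 2 libraries, with a separate linear axis from 0 for each gene. Erbb3 is between 11.9 and 25.3 RPKM, Nrg1 and Nrg2 are lower in both Ribotag libraries than in all others, and Nrg3 is higher there.

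In mutant vs. WT muscle, no ErbB receptor and no neuregulin passed the test, and the targeted gene Erbb3 had nearly the same mean in both groups, 16.7 ± 6.77 RPKM (SD, n = 2) in mutant and 16.1 ± 0.488 (SD, n = 2) in WT muscle. Among the 7 genes above the filter, Erbb2 had the largest log2 fold change with all libraries kept, at 8.89 ± 3.56 RPKM (SD, n = 2) in mutant and 12.7 ± 0.541 (SD, n = 2) in WT muscle, 70.1% of the WT mean. By percent of the WT mean, Erbb4 was lowest at 68.7%, with overlapping ranges. Both mutant libraries were below both WT libraries for Erbb2 and Egfr. The neuregulins Nrg1, Nrg2 and Nrg4 had mutant means of 85.9%, 86.2% and 100.9% of WT. Genes were tested with limma's linear model on log2(RPKM + 0.5), for genes with a mean of at least 0.5 RPKM over the 4 libraries of a comparison, and p-values were adjusted over all genes tested by the Benjamini-Hochberg method, with a threshold of 0.05. This pseudocount understates changes of low genes. Of the 8 genes, 7 were tested, all but Nrg3, and 0 passed, against 24 of 14052 genes overall (0.171%; 0.0498% higher and 0.121% lower in mutant muscle). The overall count was 45 without mutant 1, 11 without mutant 2, 106 without WT 5 and 96 without WT 6, each with 0 of the 7. At an unadjusted p under 0.05 from limma there were also 0 of 7, against 12% of all genes tested. The groups did not overlap in 2 of the 7, both lower in mutant muscle, where the share of all genes tested was 37.4% lower and 12.7% higher.

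For Erbb3 the log2 fold change in mutant vs. WT muscle was -0.0073 (SE 0.24, 95% interval -0.57 to 0.56, adjusted p = 0.992 from limma), an interval that spans 0.673 to 1.47 times the WT level on this scale. It turned to 0.11 under median-ratio scaling of the libraries, which moved the median over all genes tested from -0.10 to 0.0042. The Erbb3 value also rested on single libraries, as it was -0.42 without mutant 1, 0.40 without mutant 2, 0.023 without WT 5 and -0.037 without WT 6. For Erbb2 the log2 fold change was -0.54 (SE 0.24, 95% interval -1.10 to 0.013, adjusted p = 0.418 from limma), lower in 4 of 4 pairs of a mutant and a WT library. In the same fit, 3.64% of all genes tested had a lower value than Erbb2. The Erbb2 value was -0.15 without mutant 2 and -0.94 without mutant 1. Egfr had a log2 fold change of -0.29 and Erbb4 of -0.30, with adjusted p of 0.452 and 0.532 from limma. Values for the neuregulins ranged from -0.19 for Nrg1 to 0.01 for Nrg4, with adjusted p from limma of 0.635 for Nrg1, 0.745 for Nrg2 and 0.983 for Nrg4. Nrg1 was -0.37 without mutant 1, -0.0034 without mutant 2 and -0.11 without WT 5. Leaving out mutant 1, mutant 2, WT 5 and WT 6 in turn gave -0.24, -0.02, -0.0078 and -0.25 for Nrg2 and 0.040, -0.020, -0.035 and 0.055 for Nrg4. Erbb4 was -0.56 without WT 5 and -0.029 without WT 6, and Egfr was -0.16 without WT 6. The median over the 7 genes was -0.19. Nrg3, below the filter, averaged 0.015 RPKM in mutant and 0.020 in WT muscle, with overlapping ranges. An exact permutation test of 2 libraries against 2 cannot go below 0.33, and none was used for single genes.

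In Ribotag RNA vs. WT muscle, mean levels of Nrg1 and Nrg2 were further from WT than those of any receptor, while Nrg4 was at 81.1% of the WT mean. Nrg1 averaged 0.930 ± 0.170 RPKM (SD, n = 2) in Ribotag RNA and 2.32 ± 0.221 (SD, n = 2) in WT muscle, 40.1% of the WT mean, and Nrg2 averaged 0.228 ± 0.069 against 0.862 ± 0.164 (SD, n = 2 each), 26.5%. Erbb3 averaged 22.4 ± 4.11 RPKM in Ribotag RNA and 16.1 ± 0.488 in WT muscle (SD, n = 2 each), 1.39 times the WT mean. Over the same libraries Sox10 was 9.45 times its WT mean. Of the 8 genes, 7 were tested with limma and 0 passed, against 1 of 14418 genes overall (0.00694%), which was Sptb, named after its value was seen. At an unadjusted p under 0.05 there were 2 of 7, Nrg1 and Erbb2, against 19.5% of all genes tested. The groups did not overlap in 1 of the 7 higher in Ribotag RNA, Erbb3, and in 3 lower, Erbb2, Nrg1 and Nrg2, where the shares of all genes tested were 23.3% higher and 31% lower.

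In Ribotag RNA vs. WT muscle, Nrg1 had a log2 fold change of -0.98 (SE 0.27, 95% interval -1.66 to -0.30, adjusted p = 0.189 from limma), and was lower in 4 of 4 pairs of libraries. In this fit, 2.67% of all genes tested had a lower value. For Nrg2 it was -0.90 (SE 0.36, 95% interval -1.83 to 0.026, adjusted p = 0.267 from limma), also lower in 4 of 4 pairs. Which of them was lower depended on the pseudocount, as Nrg2 stood at -1.56 and Nrg1 at -1.24 with a pseudocount of 0.1, and at -1.94 and -1.33 in a fit without pseudocount and filter, chosen after the data were seen. Nrg4 stood at -0.22 with an interval from -0.99 to 0.55. Among receptors, Erbb3 had a log2 fold change of 0.45 (SE 0.20, 95% interval -0.05 to 0.95, adjusted p = 0.293 from limma) and Erbb2 of -0.47 (SE 0.17, 95% interval -0.90 to -0.04, adjusted p = 0.239 from limma), each in the same direction in 4 of 4 pairs. Egfr and Erbb4 varied more between the Ribotag libraries than between groups, at -0.35 and -0.32 with adjusted p of 0.590 and 0.741 from limma. The median over the 7 genes was -0.35, against -0.05 over all genes tested. Without Ribotag 1, Egfr was -0.78, Erbb4 -0.84 and Nrg4 -0.41, and without Ribotag 2 they were 0.084, 0.19 and -0.031, with Erbb3 at 0.26. Without WT 6, Egfr was -0.22 and Erbb4 -0.057, and without WT 5 Erbb4 was -0.59. Calls depended on the Ribotag replicates. Without Ribotag 1, 5 of the 7 genes passed (Egfr, Erbb2, Erbb3, Nrg1 and Nrg2), as did 30.5% of all genes tested, and without Ribotag 2, 2 of the 7 passed (Nrg1 and Nrg2), as did 40.6% of all genes tested. In these fits the single Ribotag library was assumed to vary like the WT libraries. With both Ribotag libraries kept, 0 of the 7 passed, beside 18 genes overall without WT 5 and 53 without WT 6.

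Nrg3, below the filter in all 3 comparisons, was at 5.10 times the WT mean in Ribotag 1 and 31.0 times in Ribotag 2. Tested without the filter, it had a log2 fold change of 0.65 in Ribotag RNA vs. WT muscle (SE 0.34, adjusted p = 0.447 from limma). In the fit without pseudocount and filter, the value was 3.71 (SE 1.26, 95% interval 0.56 to 6.85, adjusted p = 0.214 from limma). Many but not all neuronal markers were highest in the same library as Nrg3, for instance Stmn2 at 42.9 RPKM in Ribotag 1 and 210.7 in Ribotag 2 beside 2.51 in WT 5 and 15.5 in WT 6. Among the exceptions, Slc5a7, named after its values were seen, was highest in WT 6 at 1.24 RPKM and stood at 0.589 in Ribotag 2. Schwann lineage markers were also higher in Ribotag 2 than in Ribotag 1, for instance Fabp7 at 134.4 and 35.2 RPKM. The part of either in the Nrg3 level was not tested.

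In Ribotag RNA vs. mutant muscle, which share the Ribotag and mutant libraries with the comparisons above, Nrg1 and Nrg2 were again lower and Nrg3 higher in both Ribotag libraries, while receptor means were close except for Erbb3. Nrg1 in Ribotag RNA was at 46.7% and Nrg2 at 30.7% of the mutant mean. Erbb3 averaged 1.34 times the mutant mean, Erbb2 1.02 times and Egfr 1.001 times. Sox10, in contrast, was higher in Ribotag RNA (limma log2 difference 5.48, SE 0.38, adjusted p = 0.0064). It was among 9 of 13 Schwann lineage markers, beside 7 of 9 hepatocyte markers, that passed in this direction. Of the 8 genes, 6 were tested, all but Nrg2 and Nrg3, and 0 passed, against 171 of 14325 genes overall (1.19%). At an unadjusted p under 0.05 from limma there was 1 of 6, Nrg1, against 19.3% of all genes tested. Groups did not overlap in 0 of the 6 in the higher and 2 in the lower direction, Nrg1 and Nrg4, beside shares of 29.7% higher and 24.4% lower among all genes tested. The log2 fold change of Nrg1 was -0.79 (SE 0.33, 95% interval -1.58 to -0.0061, adjusted p = 0.257 from limma), lower in 4 of 4 pairs. It was the only one of the 6 to pass in a fit without Ribotag 1, at -0.92 with an adjusted p of 0.0337 from limma, a fit in which 17.8% of all genes tested passed, while without Ribotag 2 0 of the 6 and 26.8% of all genes passed, and without mutant 2 0 of the 6 and 107 genes. For Erbb3 the log2 fold change was 0.46 (SE 0.32, 95% interval -0.32 to 1.23, adjusted p = 0.480 from limma), higher in 3 of 4 pairs, since mutant 1 exceeded Ribotag 1. The Erbb3 value was 0.043 without mutant 2, 0.87 without mutant 1 and 0.27 without Ribotag 2. Erbb2, Egfr, Erbb4 and Nrg4 had values of 0.07, -0.06, -0.03 and -0.23, with adjusted p from limma of at least 0.745. Leaving out mutant 1, mutant 2, Ribotag 1 and Ribotag 2 in turn gave 0.47, -0.32, 0.0093 and 0.14 for Erbb2, 0.0018, -0.12, -0.49 and 0.37 for Egfr, and -0.075, 0.018, -0.55 and 0.49 for Erbb4. Nrg4 was -0.42 without Ribotag 1 and -0.041 without Ribotag 2. Without the filter, Nrg2 stood at -0.77 (SE 0.15, adjusted p = 0.152 from limma) and Nrg3 at 0.67 (SE 0.34, adjusted p = 0.443 from limma). The median over the 6 genes was -0.04, against 0.04 over all genes tested.

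**Figure D3:**
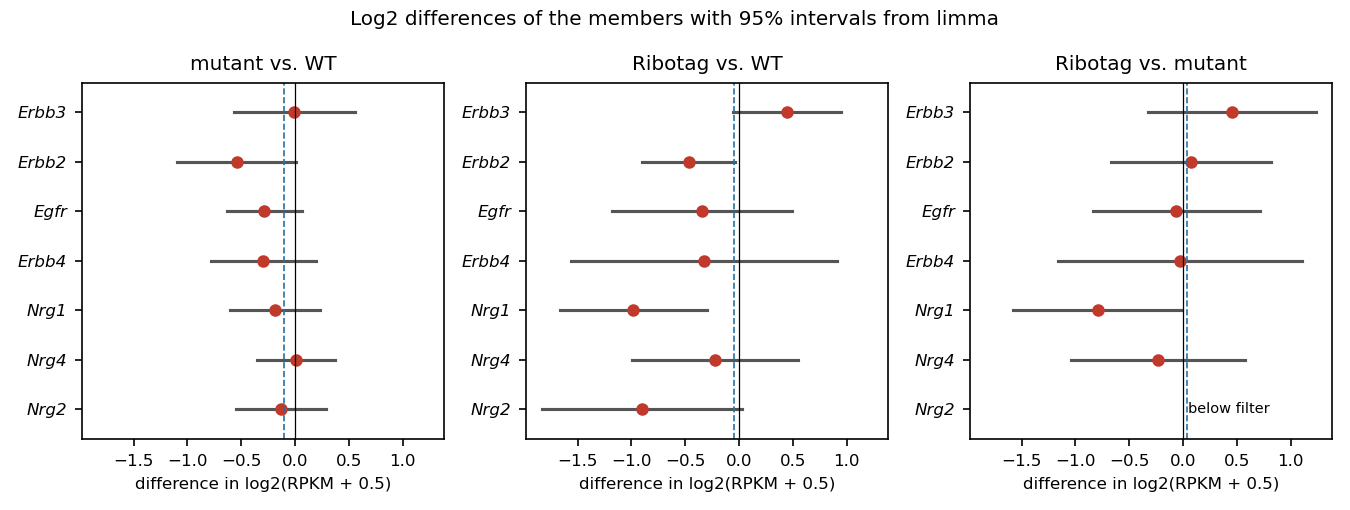
Differences in log2(RPKM + 0.5) for the genes above the filter in each comparison, with 95% intervals from limma as horizontal lines, a solid line at 0 and a dashed line at the median of all genes tested; labels mark a gene below the filter. Intervals of Nrg1 lie below 0 in both Ribotag comparisons and that of Erbb2 in Ribotag vs. WT, but none of these passed after adjustment over all genes.

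Ratios between genes of the same library do not depend on its scaling, and were looked at after the levels were seen, without a test. The Erbb3 to Erbb2 ratio was 1.34 in WT 5 and 1.21 in WT 6, 1.89 and 1.87 in mutant 1 and 2, and 2.06 and 2.94 in Ribotag 1 and 2. Groups were apart, with WT lowest and Ribotag highest, and the mutant libraries had nearly equal ratios although each gene differed between them. How often other gene pairs separate the groups was not computed. The Egfr to Erbb2 ratio was 0.682 and 0.773 in WT, 0.685 and 1.12 in mutant and 1.04 and 0.600 in Ribotag libraries. The Erbb3 to Erbb4 ratio was 26.7 and 14.1, 38.3 and 18.9, and 18.7 and 100.9 in the same order. Ranges of both these ratios overlapped between all groups. The 4 receptors together were at 37.8 and 40.1 RPKM in WT 5 and 6, 41.3 and 26.1 in mutant 1 and 2, and 39.7 and 39.3 in Ribotag 1 and 2. Erbb3 made up 43.6% and 39.4% of this sum in WT, 52.1% and 45.8% in mutant and 49.0% and 64.3% in Ribotag libraries. The 4 neuregulins together were at 4.66 and 4.24 RPKM in WT 5 and 6, 4.39 and 3.64 in mutant 1 and 2, and 2.54 and 2.52 in Ribotag 1 and 2. The Ribotag libraries thus had nearly equal neuregulin sums with unlike contents, as Nrg3 made up 3.97% of the sum in Ribotag 1 and 24.4% in Ribotag 2, but 0.595% at most in whole muscle. The share of Nrg1 was 53.1% and 51.0% in WT, 52.6% and 46.0% in mutant and 41.3% and 32.2% in Ribotag libraries. The Nrg1 to Nrg4 ratio was between 1.29 and 2.07 in whole muscle, and 0.865 and 0.991 in Ribotag 1 and 2. The Nrg1 to Nrg2 ratio was between 2.53 and 2.90 in whole muscle, and 5.86 and 2.92 in Ribotag 1 and 2. For both ratios the WT and mutant ranges overlapped.

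Other genes that act with the ErbB receptors were described by lists, of which 73 of 75 genes were found. In mutant vs. WT muscle, 66 of them were tested with limma, and 0 passed in the higher and 1 in the lower direction, beside 0.0498% and 0.121% of all genes tested. Ranges were separate in 3.03% of the 66 in the higher and 40.9% in the lower direction, beside 12.7% and 37.4% of all genes tested. The gene that passed was Pou3f1, a transcription factor of Schwann cells before myelination that is also in the Schwann lineage list. Its levels were 1.97 and 1.56 RPKM in WT 5 and 6, 0.147 and 0.135 in mutant 1 and 2, and 21.5 and 36.4 in Ribotag 1 and 2. By limma its log2 difference was -1.82 (SE 0.17, adjusted p = 0.0082), lower in 4 of 4 pairs, and did not pass without mutant 2 (adjusted p = 0.0597 from limma), with no filter (0.168) or with all 6 libraries in the fit (0.341). In Ribotag RNA vs. WT muscle 0 of 67 genes passed, but Pou3f1 passed with any 1 library left out, as it did with all 6 in the fit. Without Ribotag 1 the count here was 19 of 67, beside 30.5% of all genes tested, and without Ribotag 2 it was 21 of 67, beside 40.6%. Ranges were separate in 32.8% of the 67 in the higher and 20.9% in the lower direction, beside 23.3% and 31% of all genes tested. In Ribotag RNA vs. mutant muscle 1 of 66 passed, again Pou3f1, with a limma log2 difference of 5.48 (SE 0.32, adjusted p = 0.0046), though not with no filter (0.0519). Here 10 of 66 passed without Ribotag 1, beside 17.8% of all genes tested, and 13 of 66 without Ribotag 2, beside 26.8%. Separate ranges were found for 42.4% of the 66 in the higher and 10.6% in the lower direction, beside 29.7% and 24.4% of all genes tested. The median log2 fold changes of the lists together were -0.18, 0.09 and 0.26 in these 3 comparisons, beside -0.10, -0.05 and 0.04 over all genes tested.

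Among the other EGF-family ligands, Hbegf, which binds EGFR and ErbB4, was the most abundant. It was at 3.47 and 3.14 RPKM in WT 5 and 6, 3.36 and 2.36 in mutant 1 and 2, and 5.35 and 6.89 in Ribotag 1 and 2. Both Ribotag libraries were above all whole muscle libraries for Hbegf, while for Nrg1 both were below. Hbegf had a log2 difference of 0.79 in Ribotag RNA vs. WT muscle that did not pass (SE 0.22, adjusted p = 0.189 from limma). Tgfa, a ligand of EGFR named after its values were seen, was at 0.254 and 0.180 RPKM in WT, 0.110 and 0.087 in mutant and 1.32 and 1.61 in Ribotag libraries. Btc and Egf had overlapping ranges in all 3 comparisons. Of the proteases that release neuregulins from the membrane, Adam10, Adam19 and Bace1 were the most abundant, with mutant means of 77.1%, 65.5% and 75.8% of WT. All 3 were lower in both mutant libraries than in both WT libraries, as were 4 of 5 genes of this list, and 0 of 5 passed, beside 37.4% of all genes tested with such ranges. Akt1, Nras and Shc1 led the 26 adaptors and kinases by mean level, and Spry2, Spry1 and Dusp6 led the 17 negative regulators found, of which 0 passed in any comparison. The 3 most abundant neuregulin-responsive and synaptic genes, Chrng, Chrnb1 and Rapsn of the muscle side of the neuromuscular synapse, had overlapping ranges in mutant vs. WT muscle, at means of 27.2, 25.9 and 23.1 RPKM in mutant and 28.1, 23.0 and 21.9 in WT muscle. Chrna1 of the same list, named after its values were seen, was higher in 4 of 4 pairs and did not pass (log2 difference 0.35, 95% interval 0.013 to 0.69, adjusted p = 0.410 from limma).

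Genes with a pattern like that of a member were sought by the root mean square difference of centred log2 values over the 6 libraries, among 14320 genes. The rule asked for group means that span at least 1 on the log2 scale, which no member reached, so a span of 0.8 was used after the data were seen. Nrg1, with a span of 0.98, was closest to Calhm2, Zfat, Hlx, Islr and Fam160a2, at differences between 0.064 and 0.078. Nrg2, with a span of 0.90, was closest to Papln, Isyna1, Spsb2, Rcn3 and Galk1, at differences between 0.047 and 0.065. These genes differ widely in level, from Papln at 1.19 to Rcn3 at 179.7 RPKM in WT 5.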

How the data were processed

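RNA-Seq of 6 diaphragm libraries was used, and groups and replicate numbers came from the titles. The authors deposited RPKM per Ensembl gene with a flag of 1 at a floor value. STAR and mm9 are named in the submitters' processing notes, while the RPKM program and annotation are not given in the sources used here. Each file has 23076 entries, 3 of them without a value. Read counts were not used. Depth was computed as the median implied by the floors of single-exon microRNA genes. In each library between 80.4% and 82.0% of these genes gave the same depth. Depth limits low genes such as Nrg3, and counting error was not computed.

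Symbols and positions came from GENCODE M21 on GRCm38 by identifier (1490 of the 23073 identifiers had no symbol). RPKM were transformed to log2(RPKM + 0.5) and tested with limma 3.58.1 (lmFit and trended eBayes) under R 4.3.3. Each fit held the 4 libraries of a comparison, without a block. The code was tested on simulated data. Alternatives were all 6 libraries in a fit, median-ratio scaling, a stricter filter at 1 RPKM or none, 0.1 or 1 as pseudocount, a replicate block, and leaving out each library. A fit without pseudocount and filter, and a span of 0.8 for alike genes, were added after the data were seen. Tables and plots used Python 3.11.15, numpy 2.4.6, pandas 2.3.3 and matplotlib 3.10.9.

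Named genes were all members, the pathway genes past the threshold or among the 3 most abundant of a list, markers among the 3 most abundant or the first 2 of a list, and the 5 genes most alike to a member. Other names were chosen after their values were seen. The members and lists were chosen with earlier results of these data known.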

Additional observations from a re-analysis of the deposited data

How the results depend on the processing

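With all libraries kept, the number of ErbB receptor and neuregulin genes past the threshold was 0 in each comparison under each alternative of pseudocount, filter, scaling and fit. Of 145 fold changes of single members in these alternatives, 143 kept their direction and their side of the threshold. Many of them could not turn, since another filter, all 6 libraries in a fit or a replicate block leaves the fold change itself unchanged. In those fits only the side of the threshold could move, so this count says little about direction. Erbb3 in mutant vs. WT turned to 0.11 under median-ratio scaling, and Erbb4 in Ribotag vs. mutant to 0.00028 with a pseudocount of 1; the cause was not tested. Counts of all genes moved from 24 to 0 with no filter and to 0 with all 6 libraries in mutant vs. WT, from 1 to 0 with no filter, 2 with median-ratio scaling and 138 with all 6 libraries in Ribotag vs. WT, and from 171 (146 higher and 25 lower) to 112 with no filter (13 higher and 99 lower) and 692 with all 6 libraries in Ribotag vs. mutant. Under median-ratio scaling the calls in mutant vs. WT were 11 higher and 16 lower, beside 7 and 17. Pathway genes moved from 1 to 0 in mutant vs. WT with no filter, a stricter one at 1 RPKM or all 6 libraries, from 0 to 2 in Ribotag vs. WT with all 6 libraries, and from 1 to 0 with no filter and 4 with all 6 libraries in Ribotag vs. mutant.

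Leaving out each library in turn gave 11 to 106 genes in mutant vs. WT, 18 to 5857 in Ribotag vs. WT and 107 to 3844 in Ribotag vs. mutant. Members past the threshold were 0 to 0, 0 to 5 and 0 to 1, and pathway genes 0 to 1, 1 to 21 and 1 to 13. The high counts came without a Ribotag library, when the remaining library was assumed to vary like the other group. Directions turned for Erbb3 (-0.42 to 0.40) and Nrg4 (-0.035 to 0.055) in mutant vs. WT, Egfr (-0.78 to 0.084) and Erbb4 (-0.84 to 0.19) in Ribotag vs. WT, and Egfr (-0.49 to 0.37), Erbb2 (-0.32 to 0.47) and Erbb4 (-0.55 to 0.49) in Ribotag vs. mutant. Ribotag and mutant libraries share the numbers 1 and 2 only as numbers. With a replicate block, 842 genes, 0 members and 4 pathway genes passed, and deviations of same-numbered libraries from their group means correlated at 0.168 across genes.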
